A study of Mus musculus with 2 samples.

Results

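Intermediate filament and lamin genes were examined in the newborn mouse heart: Des (desmin), Vim (vimentin), Synm (synemin), Nes (nestin), the simple-epithelial keratin genes Krt7, Krt8, Krt18 and Krt19, and the lamin genes Lmna and Lmnb1. They were chosen by name, and all 10 were found by identifier among 43346 genes in the deposited gene tables. The study held 1 group, whole hearts of healthy B6NTac;B6NCrl/Lap mice at postnatal day 0, with male and female pups pooled and no treatment. Its 2 biological replicates were independent tissue isolates carrying the same donor label. Replicate 1 pooled 15 mice and the number behind replicate 2 was not given, so the spread below is between pools and not between animals. RNA longer than 200 nucleotides was depleted of ribosomal RNA and read as stranded pairs of 101 nucleotides, per the labels. Expected counts (estimated fragments per gene) summed over genes to 69946215 in replicate 1 and 73615802 in replicate 2. With 1 group there was no contrast between conditions and no test was made.

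Intermediate filaments are rope-like polymers of coiled-coil proteins that give cells and nuclei mechanical strength. In muscle, desmin links the Z-discs of neighbouring myofibrils to each other, to mitochondria and to intercalated discs, and synemin and nestin can join its filaments but do not form filaments alone. Vimentin is the filament protein of fibroblasts, endothelium and other mesenchymal cells, keratins assemble as obligate pairs of an acidic and a basic chain in epithelia and mesothelium, and lamins line the inner face of the nuclear envelope.

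Heart identity was checked first. All 11 cardiomyocyte markers were at 1 TPM or more in both replicates (TPM, a level per unit of transcript length scaled to the same total in each library), with summed levels of 14742 and 15584 TPM. The 9 endothelial markers summed to 395.03 and 397.72 TPM and the 10 fibroblast markers to 759.47 and 927.09 TPM. In bulk tissue, fewer cells of a type and less RNA per cell cannot be told apart.

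Of the 10 genes, 9 were at 1 TPM or more in both replicates, and Synm was so in replicate 2 alone. Among all 43346 genes, 10471 were at 1 TPM or more in both replicates and 11594 averaged at least 1 TPM. By mean TPM the order was Vim, Des, Lmna, Krt8, Krt18, Lmnb1, Krt19, Nes, Krt7 and Synm. The ranges of the 2 replicates did not overlap between Vim and Des, Des and Lmna, or Lmna and Krt8. They overlapped for the other 6 of 9 neighbouring pairs, from Krt8 down to Synm, so the ranges do not separate those neighbours. Within each replicate, gene TPM of Krt8 was above Krt18. Separately, Krt19 was above Nes, Nes above Krt7 and Krt7 above Synm in each. Krt19 was above Krt8 and Krt18 in replicate 1 (5.85 against 4.53 and 3.44 TPM). It was below both in replicate 2 (13.75 against 31.41 and 20.73 TPM). Nes was above Krt18 in replicate 1 and below it in replicate 2. Lmnb1 was above Krt18 and Krt19 in replicate 1 and below both in replicate 2.

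**Figure D1:**
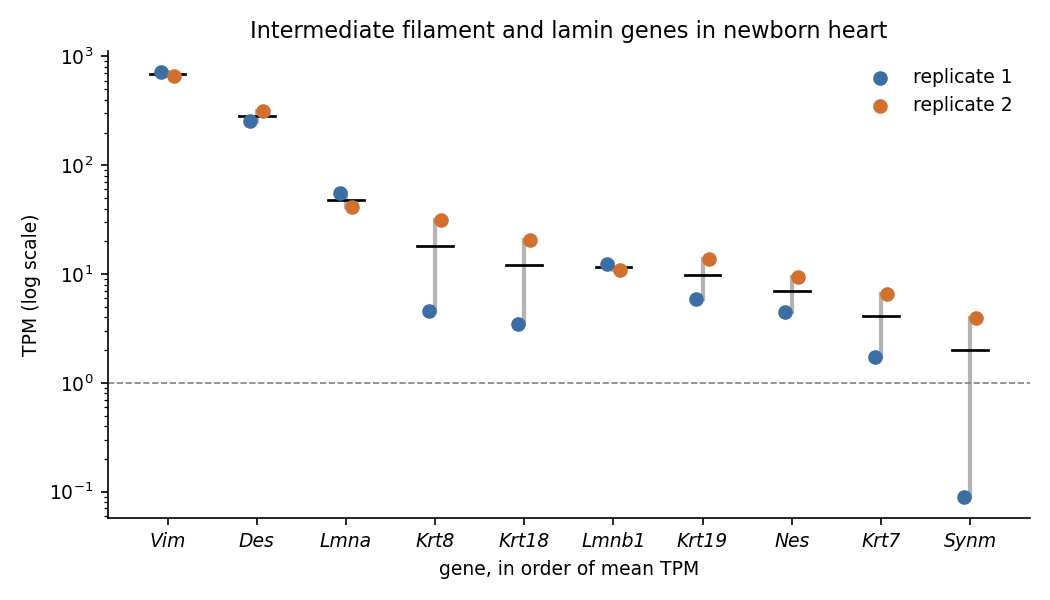
TPM of each gene on a log axis, in order of mean TPM; points are the 2 replicates, black lines their mean, grey bars the range between them, and the dashed line marks 1 TPM. Vim and Des sit above 200 TPM in both replicates, whereas Synm spans 0.09 to 3.94 TPM.

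Des and Vim gave the highest levels and were close between replicates. Des (ENSMUSG00000026208.9, chr1:75360329-75368579, plus strand, GRCm38) measured 256.24 TPM in replicate 1 and 313.9 TPM in replicate 2, a mean of 285.07 ± 40.8 (SD, n = 2). Its expected counts were 72455 and 91882, which placed it 166th and 128th by TPM among 21474 protein-coding genes. Vim (ENSMUSG00000026728.5, chr2:13573927-13582826, plus strand) measured 720.14 and 667.4 TPM, a mean of 693.77 ± 37.3 (SD, n = 2), from counts of 73416 and 75208, and ranked 49th and 55th. Both genes therefore drew nearly the same number of fragments in replicate 1, and Des drew more in replicate 2. Vim was higher per length in both.

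The gap between Vim and Des depended on which transcripts were counted. On the log2 scale the ratio of Des to Vim TPM was -1.49 and -1.09, a mean of -1.29 ± 0.28 (SD, n = 2). The ratio of counts, not divided by length, was 0.13 ± 0.22 (SD, n = 2) on the same scale. Restricted to transcripts annotated as coding, Vim measured 316.56 and 314.96 TPM against 249.16 and 300.05 TPM for Des, and the log2 ratio was -0.21 ± 0.19 (SD, n = 2).

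For Des, the coding transcript Des-201 (9 exons, 469 codons) held 97.24% and 95.59% of the gene's TPM. For Vim, the reference-length coding transcript Vim-201 (466 codons) had 90.06 and 70.64 TPM, and a shorter coding model, Vim-206 (427 codons), had 221.8 and 243.58 TPM. The retained-intron models Vim-204 (231.51 and 233.34 TPM) and Vim-203 (170.9 and 117.67 TPM) supplied much of the remainder. Retained-intron models together took 56.0% and 52.8% of Vim TPM but 27.7% and 26.7% of its counts.

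Synemin was the gene with the largest gap between replicates among the 10. Synm (ENSMUSG00000030554.11, chr7:67730160-67759742, minus strand) measured 0.09 TPM in replicate 1 and 3.94 TPM in replicate 2, a mean of 2.015 ± 2.72 (SD, n = 2), from 74 and 3118 counts. The TPM of replicate 2 was 43.8 times that of replicate 1. In replicate 1 all of it was assigned to Synm-202 (1561 codons), and in replicate 2 Synm-202 had 2.06 TPM and Synm-201 (1259 codons) 1.88 TPM. The gene overlaps Ttc23 on the other strand, which had 749 and 731 counts. The libraries were labelled stranded.

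Nestin, a large filament protein of progenitor and developing muscle cells, gave opposite answers on different scales. Nes (ENSMUSG00000004891.12, chr3:87971078-87980451, plus strand) measured 4.47 and 9.46 TPM, a mean of 6.97 ± 3.53 (SD, n = 2), although its counts were 2722 and 2315. Its main coding transcript Nes-201 (1864 codons) was at 4.29 TPM in replicate 1 and 2.33 TPM in replicate 2. The retained-intron model Nes-202 went from 0.07 to 7.12 TPM, on 7.01 and 807.08 counts, and from 1.45% to 75.34% of the gene's TPM. The gene's mean effective length was accordingly 5763 nucleotides in replicate 1 and 2210 in replicate 2. The higher gene TPM of replicate 2 thus lay in Nes-202, and the coding transcripts were lower there.

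All 4 keratin genes were higher in replicate 2, and together they summed to 15.54 and 72.44 TPM, a ratio of 4.66. Krt8, a basic keratin, and Krt18, its acidic partner, lie 23.7 kb apart on chromosome 15, on opposite strands, and Krt7 ends 566.4 kb from Krt8. Krt8 (ENSMUSG00000049382.9, chr15:101996698-102004482, minus strand) measured 4.53 and 31.41 TPM, a mean of 17.97 ± 19.0 (SD, n = 2), from 725 and 5277 counts. Krt18 (ENSMUSG00000023043.6, chr15:102028180-102032027, plus strand) measured 3.44 and 20.73 TPM, a mean of 12.09 ± 12.2 (SD, n = 2), from 404 and 2553 counts. The ratios of replicate 2 to replicate 1 were 6.93 for Krt8 and 6.03 for Krt18. The partners kept a similar proportion, with a log2 TPM ratio of Krt8 to Krt18 of 0.40 and 0.60.

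Krt7 (ENSMUSG00000023039.12, chr15:101411043-101430313, plus strand), a basic keratin of ductal and other simple epithelia, measured 1.72 and 6.55 TPM, a mean of 4.135 ± 3.42 (SD, n = 2), from 540 and 2741 counts. It was 3.81 times higher in replicate 2. Krt19 (ENSMUSG00000020911.10, chr11:100140810-100148665, minus strand), a small acidic keratin, measured 5.85 and 13.75 TPM, a mean of 9.8 ± 5.59 (SD, n = 2), from 795 and 1444 counts, 2.35 times higher. For Krt19 part of that gap was in ENSMUST00000126460.3, a processed transcript without a coding region, at 0 and 6.21 TPM. The coding transcript ENSMUST00000007317.7 was at 5.85 and 7.55 TPM. For Krt7 the coding transcript ENSMUST00000068904.8 carried the gap, at 1.22 and 6.22 TPM.

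Krt7, Krt8, Krt18 and Synm were more than 2-fold higher in replicate 2 on gene TPM, counts and coding TPM alike, and their upstream sequences are shown to let their start regions be compared. They come from RefSeq promoter windows on GRCm38.p6, 5′ to 3′ on the gene's strand, and are limited to bases before any annotated untranslated region. Windows of 8 of the 10 genes were searched, which is not a count of the genes with an entry. Capitals mark matches on either strand to a TATA box (TATAAA), a GC box (GGGCGG), an AP-1 site (TGANTCA), an E-box (CANNTG) or a CArG box.
Krt7, chr15:101412153-101412401, plus strand: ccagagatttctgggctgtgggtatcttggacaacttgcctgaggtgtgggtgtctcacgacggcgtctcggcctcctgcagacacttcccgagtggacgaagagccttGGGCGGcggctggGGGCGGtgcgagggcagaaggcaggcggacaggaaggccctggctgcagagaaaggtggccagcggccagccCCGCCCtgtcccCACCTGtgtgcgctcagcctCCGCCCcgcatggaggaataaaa
Krt8, chr15:102004483-102004592, minus strand: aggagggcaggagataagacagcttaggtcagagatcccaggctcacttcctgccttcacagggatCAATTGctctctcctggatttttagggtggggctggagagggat
Krt18, chr15:102027966-102028179, plus strand: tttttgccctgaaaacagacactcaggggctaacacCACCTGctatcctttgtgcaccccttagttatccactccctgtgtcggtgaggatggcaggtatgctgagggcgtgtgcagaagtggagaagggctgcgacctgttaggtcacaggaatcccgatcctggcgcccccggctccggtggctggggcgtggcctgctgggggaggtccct
Synm, chr7:67759743-67759992, minus strand: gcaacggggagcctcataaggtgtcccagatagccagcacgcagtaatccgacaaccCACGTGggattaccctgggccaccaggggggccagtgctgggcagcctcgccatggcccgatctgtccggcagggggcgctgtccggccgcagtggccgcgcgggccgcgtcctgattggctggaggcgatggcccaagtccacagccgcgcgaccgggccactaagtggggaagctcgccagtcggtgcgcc
The Krt7 stretch lies inside the gene's annotated span, which begins at chr15:101411043. It precedes the RefSeq start and not the whole annotated gene. The Krt7 window held 4 GC boxes, and the windows of Krt8, Krt18 and Synm held none in the full 250 nucleotides before their start. Each had an E-box, as did 66.2% of 32817 promoter windows of that length. A GC box was in 32.7% of those windows, a TATA box in 12.4%, an AP-1 site in 6.75% and a CArG box in 1.47%. No TATA box, AP-1 site or CArG box was found in the windows of the 4 genes. A match of letters is a description and not evidence of a bound factor.

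Both lamin genes were within 2-fold between replicates. Lmna (ENSMUSG00000028063.11, chr3:88480147-88509956, minus strand), which encodes lamins A and C, measured 55.43 and 41.28 TPM, a mean of 48.36 ± 10.01 (SD, n = 2), from 11378 and 9868 counts.

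Lamin A and lamin C are made from Lmna by alternative splicing at the 3′ end. Their transcripts are Lmna-201 for lamin A (12 exons, 665 codons) and Lmna-203 for lamin C (10 exons, 574 codons). Lamin A is made as a farnesylated precursor that ZMPSTE24 cleaves, and lamin C is not farnesylated.

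Lamin C was the higher of the 2 transcripts per length in both replicates. Lamin A measured 17.98 and 15.99 TPM and lamin C 30.42 and 24.8 TPM. The ratio of C to A was 1.69 and 1.55, a mean of 1.62 ± 0.0996 (SD, n = 2), and lamin C made up 62.9% and 60.8% of their sum. The deposited intervals were 16.8 to 18.9 and 15.0 to 16.5 TPM for lamin A, and 28.7 to 31.6 and 23.4 to 25.8 TPM for lamin C, and did not overlap between the transcripts. In expected counts, where the longer lamin A transcript yields more fragments, lamin C held 50.5% (exact 95% interval 49.6 to 51.5) of 11005 counts and 48.4% (47.4 to 49.4) of 9839 counts. The exact intervals cover counting error alone, and not the error of assigning fragments to either transcript.

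The other Lmna transcripts were low and mostly seen in replicate 1. Lamins A and C together held 87.31% of the gene's TPM in replicate 1 and 98.83% in replicate 2. Lmna-202, a coding model with 462 codons, was at 0 and 0.06 TPM. The processed transcript Lmna-204 was at 4.17 and 0 TPM, and the retained-intron model Lmna-207 at 2.13 and 0.11 TPM. Lmna coding TPM was 48.4 and 41.17, a smaller gap than the gene total.

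Lmnb1 (ENSMUSG00000024590.8, chr18:56707813-56753424, plus strand), which encodes the permanently farnesylated lamin B1, measured 12.43 and 10.8 TPM, a mean of 11.62 ± 1.15 (SD, n = 2), from 3216 and 3056 counts. Lmna exceeded Lmnb1 in both replicates, with log2 TPM ratios of 2.16 and 1.93. Lmnb2, the gene of lamin B2, was lower still at 4.92 and 3.68 TPM.

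**Figure D2:**
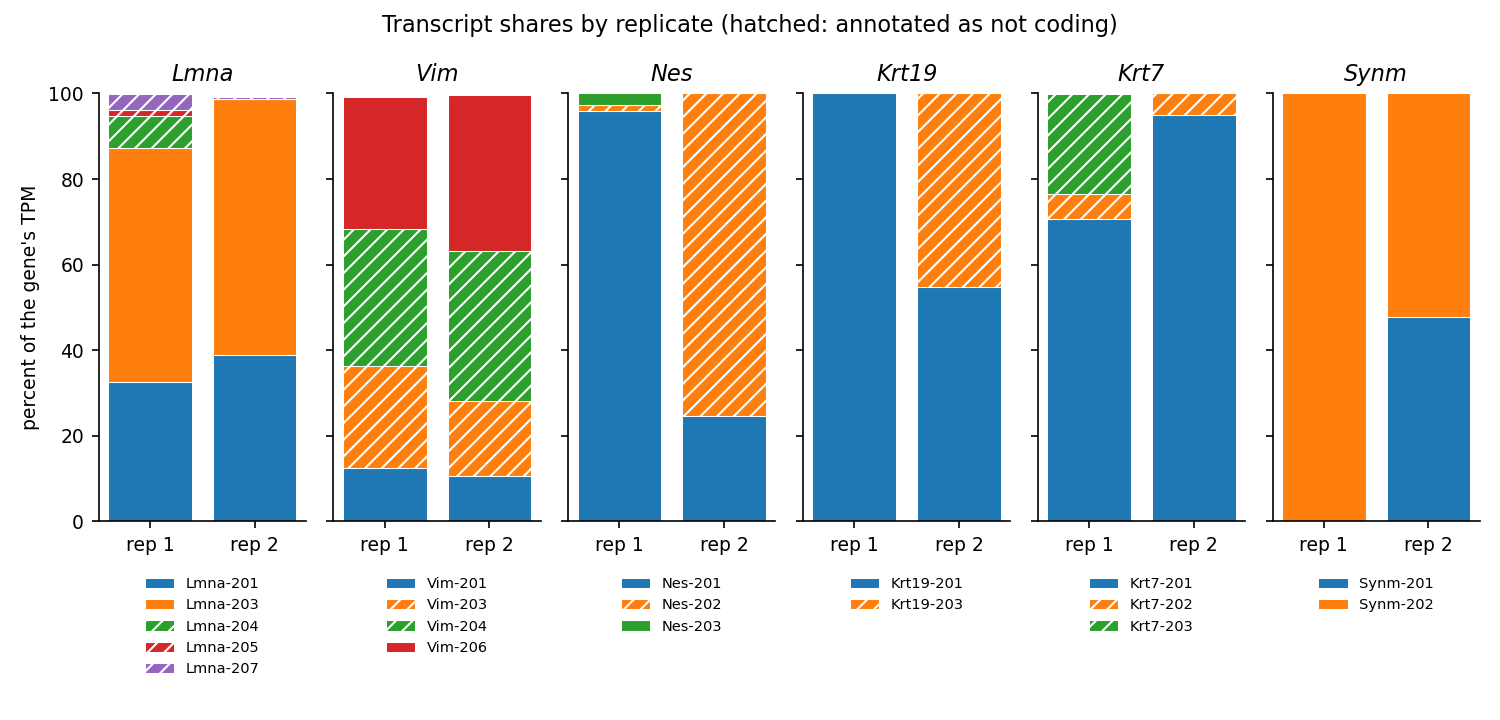
Percent of each gene's TPM (vertical axis) assigned to its transcripts in each replicate, for 6 genes, with hatching for transcripts annotated as not coding; transcripts with small shares are not drawn. Lmna keeps lamin C (Lmna-203) at 54.87% and 60.08%, whereas Nes moves from the coding Nes-201 to the retained-intron Nes-202 at 75.34%.

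A difference of 2-fold or more was then counted, on log2 of TPM plus 0.1, centred on the median gene. Of the 10 genes, 6 were past 2-fold higher in replicate 2 (Synm, Nes, Krt7, Krt8, Krt18 and Krt19) and 0 were past 2-fold lower, with a median of 1.12 on the log2 scale. Among all 11594 genes whose mean reached 1 TPM, 10.1% were past 2-fold higher and 8.9% lower, and the centred median was 0. The 10 genes all passed that filter on the mean, Synm through replicate 2 alone, so its place among the counted genes rests on the replicate in which it is high. On counts scaled by TMM factors 4 remained past 2-fold (Synm, Krt7, Krt8 and Krt18) and 0 were past it lower, against 7.83% and 6.69% of all genes. On coding TPM the same 4 genes were past 2-fold higher and 0 lower, against 8.45% and 8.06% of all genes.

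**Figure D3:**
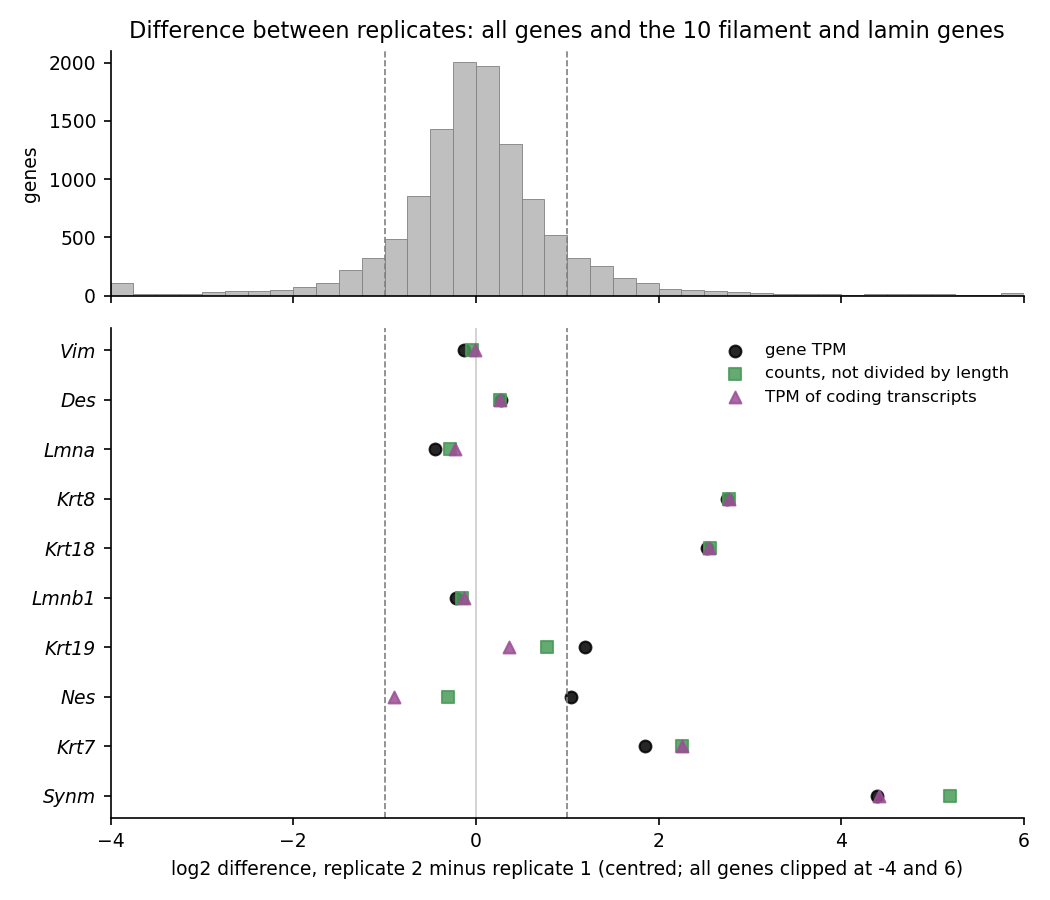
The upper panel counts all genes averaging at least 1 TPM by their centred log2 difference, replicate 2 minus replicate 1, and the lower panel gives the 10 genes on gene TPM, counts and coding TPM; dashed lines mark 2-fold. Synm, Krt8, Krt18 and Krt7 lie right of the upper dashed line on all 3 scales, while Nes lies on both sides of 0.

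By size, the centred differences were 4.39 for Synm, 2.74 for Krt8, 2.53 for Krt18, 1.85 for Krt7, 1.20 for Krt19 and 1.04 for Nes. They were 0.27 for Des, -0.13 for Vim, -0.45 for Lmna and -0.22 for Lmnb1. The 95th percentile of the absolute difference over all genes was 2.15, which Synm, Krt8 and Krt18 exceeded. The median absolute difference was 0.40, which Des, Vim and Lmnb1 stayed under and Lmna slightly exceeded.

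Markers of other cell types that could have entered the dissection were counted beside these differences. The 10 urothelial markers summed to 2.06 TPM in replicate 1 and 68.42 TPM in replicate 2, and 0 of them were at 1 TPM or more in both replicates. Upk3a, a uroplakin, measured 0.07 and 32.57 TPM, and Upk1a 0.33 and 21.31 TPM. Of the 10, 5 averaged at least 1 TPM (Upk1a, Upk2, Upk3a, Cldn4 and Pparg), each through replicate 2 alone, so their being higher there follows from the filter. Below it, Krt5 measured 0 and 1.97 TPM, Foxa1 0 and 0.41, Grhl3 0.47 and 0.5, and Trp63 0.18 and 0.23, and Krt20 was listed at 0 in both. The 11 general epithelial markers summed to 12.45 and 27.09 TPM, with Ovol1 at 0. Mesothelial and epicardial markers summed to 63.02 and 81.76 TPM. Of these 11, 2 were past 2-fold higher and 1 lower, against 10.1% and 8.9% of all genes averaging at least 1 TPM. Lung epithelial markers summed to 137.6 and 149.49 TPM, nearly all Hopx, which heart muscle also expresses, with Sftpd and Nkx2-1 at 0, and thymic epithelial markers to 1.53 and 3.26 TPM. Their part in the keratin differences was not tested.

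Smooth muscle and pericyte markers were counted beside Synm, a gene also expressed in smooth muscle. All 11 were at 1 TPM or more in both replicates, with sums of 413.18 and 780.05 TPM. Past 2-fold higher in replicate 2 were 4 of them (Tagln, Myh11, Cnn1 and Kcnj8), and 0 were past it lower. Among all genes averaging at least 1 TPM the shares were 10.1% and 8.9%. The median difference of the list was 0.50. Acta2, the highest of the 11, measured 280.03 and 395.1 TPM. Myocd measured 24.09 and 34.22 TPM, on 11070 and 9224 counts. Myh11, smooth muscle myosin, measured 1.01 and 24.97 TPM, and Tagln 16.83 and 160.35 TPM. Schwann and neuronal markers summed to 3.28 and 3.25 TPM. The part of these cells in the Synm difference was not tested.

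Other filament genes were low. The 8 other type III and type IV filament genes listed were under 1 TPM in at least 1 replicate each, with sums of 1.0 and 0.42 TPM and Nefm, Ina and Bfsp2 at 0. Among 4 other keratins listed apart from those of stratified epithelium, Krt80 measured 3.16 and 1.87 TPM and Krt222 1.48 and 1.2 TPM. Krt20 and Krt23 were at 0. Of 17 keratins of stratified epithelium, 0 reached 1 TPM in both replicates and 10 were at 0. Krt15 measured 0.03 and 2.14 TPM, Krt5 0 and 1.97 TPM, and Krt4 0 and 1.43 TPM.

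Partners of the desmin network and the lamina were present in both replicates. Of 15 linkers and chaperones, 12 were at 1 TPM or more in both. The median difference was 0.04 over the 13 that averaged at least 1 TPM, as for the medians below. Of those 13, 2 were past 2-fold higher (Mtm1 and Sgca) and 0 lower, against 10.1% and 8.9% of all genes averaging at least 1 TPM. Sgca measured 12.38 and 82.75 TPM on 1529 and 2943 counts, a smaller gap in counts than in TPM. Mtm1 measured 0.98 and 2.43 TPM, so it passed the filter through replicate 2 alone, where it is high. The small heat shock proteins that chaperone desmin were high, Hspb1 at 314.69 and 348.49 TPM and Cryab at 131.57 and 137.67 TPM. Plakoglobin (Jup) measured 89.11 and 84.51 TPM, and Macf1, which joins filaments to microtubules and actin, 62.04 and 56.7 TPM.

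Of 15 lamina and envelope partners, 14 were at 1 TPM or more in both replicates. Past 2-fold, 0 were higher and 2 lower (Emd and Nrm), against 10.1% and 8.9% of all genes averaging at least 1 TPM. The median difference was -0.43 on gene TPM. Lmna was at -0.45 on that scale, -0.28 on counts and -0.23 on coding TPM, and Lmnb1 was at -0.22 on gene TPM. Banf1, which bridges chromatin and the envelope, measured 51.13 and 32.6 TPM, and Tmpo (lamina-associated polypeptide) 35.92 and 26.58 TPM. All 5 lamin processing enzymes were detected in both, with a median difference of 0.41. Zmpste24, the protease that matures lamin A, measured 3.46 and 2.94 TPM, and the farnesyltransferase subunit Fnta 9.37 and 14.29 TPM. Proliferation markers had a median difference of -0.72, with 2 of 10 past 2-fold lower (Cdk1 and Aurkb) and 0 higher. Among all genes averaging at least 1 TPM, 8.9% were lower and 10.1% higher. Counts were 4012 and 2903 for Cdk1, a smaller gap than in its TPM, and 1821 and 799 for Aurkb.

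**Figure D4:**
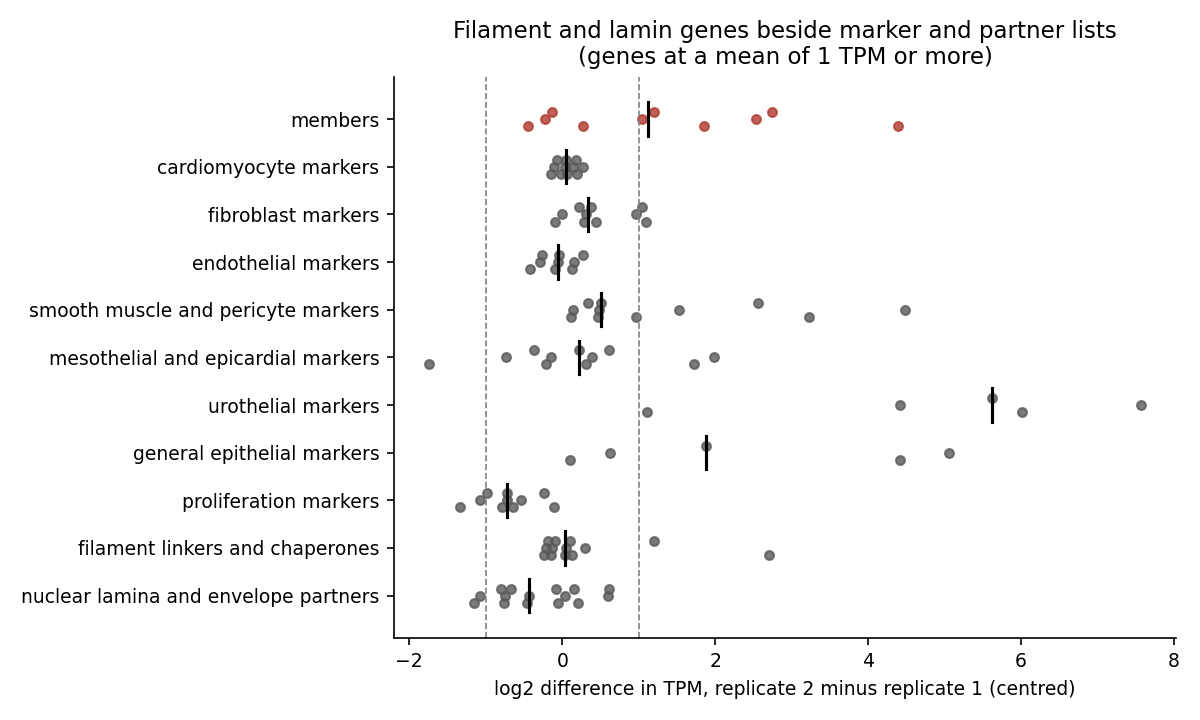
Centred log2 difference in TPM, replicate 2 minus replicate 1, for the 10 genes (red, "members") and for genes of partner and marker lists that averaged at least 1 TPM; black ticks are medians and dashed lines mark 2-fold. Cardiomyocyte markers cluster at 0 (median 0.05), whereas the 5 urothelial markers drawn, each under 1 TPM in replicate 1, entered through replicate 2 alone and so had to lie to the right (median 5.62).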

How the data were processed

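Tables of both replicates were used as deposited. The authors' expected counts are maximum likelihood fragment counts per gene or transcript, per the file headers, with no scaling between libraries. The deposited TPM values divide them by effective length and scale them over every entry of the table, spike-ins included, and the deposited FPKM values scale by length and library total. Transcript shares, per the file headers, are each a percent of the gene's TPM. Interval bounds on TPM, a signal whose confidence level is not stated, were taken as deposited. The deposited notes name mm10 and annotation M4, with aligner, quantifier and versions not given in the sources used here.

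Symbols, coordinates and transcript types were looked up in GENCODE M21 (GRCm38) by unversioned identifier. Replicate 2 was set against replicate 1 on log2 of TPM plus 0.1 (the pseudocount), less the median over genes averaging at least 1 TPM, and values past 2-fold were counted. The code for the 2-fold counts was run on simulated libraries with counting error alone and the same effective lengths in both. Those libraries lacked the spread between pools and the shifts in effective length, so they cannot support the calls made here. Exact binomial intervals are at the 95% level and cover counting error alone. Alternatives were pseudocounts of 1 and 0.01, no filter or 5 TPM, no centring, TMM-scaled rounded counts (edgeR 4.0.16, R 4.3.3), FPKM, posterior means, single replicates, nuclear coding TPM, and, chosen after seeing the data, coding-transcript TPM and counts per length of the longest coding transcript.

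The genes and the 18 lists, of which 174 of 177 symbols were found, were chosen with earlier results of these data known. All 10 genes were named, and of each list up to 4 with the highest mean TPM, and keratins at 1 TPM in a replicate. The sequences of the lamin A and lamin C transcripts are not reported here. Others named as past 2-fold or at 0, with Myh11, Zmpste24, Grhl3, Trp63 and Foxa1, were named after their values were seen. Software was pandas 2.3.3, scipy 1.17.1, numpy 2.4.6 and matplotlib 3.10.9 under Python 3.11.15.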

Additional observations from a re-analysis of the deposited data

How the results depend on the processing

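Rescaling TPM over nuclear protein-coding genes raised all 10 levels, with Des going from 285.07 to 1078.6 and Vim from 693.77 to 2627 TPM. On coding TPM the mean of Vim was 315.76 and that of Nes 3.37, and the other 8 levels moved by less than the spread between replicates. The mean log2 ratio of Des to Vim was -1.29 on TPM, 0.13 on counts not divided by length, -0.21 on coding TPM and -0.39 on counts per length of the longest coding transcript. Krt8 to Krt18 went from 0.50 to 0.95 on counts, Lmna to Lmnb1 from 2.05 to 1.76 on counts and 1.59 per coding length, and Krt7 to Krt19 reversed to 0.18 on counts. Nes reversed to -0.31 on counts and -0.89 on coding TPM. Of all Lmna counts lamin C held 48.6% and lamin A 49.7%. At 5 TPM, 5 of the 10 genes were detected in both replicates. The share of genes past 2-fold was 6.39% higher and 4.77% lower with a filter at 5 TPM, 5.61% lower with a pseudocount of 1 and 13.9% lower with no filter. Of the 10 genes, 4 were past 2-fold higher with the filter at 5 TPM, which removed Synm and Krt7, 5 with a pseudocount of 1, where Nes was at 0.92, and 6 with no filter. No paired analysis was possible because there was 1 group. With 2 pools, the spread rests on 1 difference. The counts behind the levels ran from 74 (Synm in replicate 1) to 91882 (Des in replicate 2). Mean levels with either replicate left out are the single values given above.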
